A study of Mus musculus with 5 samples.

Results

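The vacuolar proton pump (V-ATPase) was examined through 10 genes in the brain of old mice: the V0 subunit genes Atp6v0a1, Atp6v0c and Atp6v0d1, the V1 subunit genes Atp6v1a, Atp6v1b2, Atp6v1e1, Atp6v1g2 and Atp6v1h, and the accessory subunit genes Atp6ap1 and Atp6ap2. They were chosen by name, and all 10 had a row among the 47729 genes of the deposited count table. Messenger RNA libraries were sequenced from the brain, with no region named, of 5 male C57BL/6 mice aged 30 months, which form a single group and are named by their label numbers, mice 7, 8, 9, 10 and 11. All 5 share strain, sex, age and tissue, and no treatment or altered allele is given, so levels, their order and the spread between mice could be described, but no effect of age. Errors are SDs over the 5 mice (n = 5). The labels do not say how the tissue was divided or whether libraries were made from separate extractions, so the spread may in part be technical.

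The V-ATPase is a rotary motor that uses ATP to pump protons into lysosomes, endosomes, the Golgi and secretory vesicles. Its cytosolic V1 sector splits ATP and turns a shaft, and the turning of the membrane-bound V0 ring carries protons across the membrane. In neurons the pump acidifies synaptic vesicles, and the vesicular transporters for glutamate, GABA and monoamines use the resulting proton gradient to load transmitter. In lysosomes it provides the acidity that digestive enzymes need and takes part in nutrient sensing by mTORC1 through the Ragulator complex.

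The libraries held between 15392006 and 18723390 counts. All 6 neuronal markers listed (Snap25, Rbfox3, Tubb3, Syt1, Stmn2, Elavl4) were detected in every library, with summed levels from 3960 CPM (counts scaled to a common library total) in mouse 11 to 5292 CPM in mouse 7. These markers did not move together. In mouse 11 Snap25, Syt1 and Stmn2 were at their lowest, but Rbfox3 and Tubb3 were at their highest. The 6 markers each of astrocytes, oligodendrocytes, microglia, endothelium and choroid plexus were also detected in every library; their summed levels ranged from 1153 to 1444, 4254 to 5866, 406 to 471, 264 to 377 and 469 to 721 CPM. The 6 cerebellar markers ranged from 23.7 CPM in mouse 9 to 125 CPM in mouse 10, and 2 of them were at 0 in at least 1 library. In bulk tissue, fewer cells of a type and less RNA per cell cannot be told apart. The GC content and length of genes accounted for 43.9% of the variance of log2 deviations over 16264 genes for mouse 11. For mouse 7 that share was 19.7%, and for the remaining mice it was 2.12% to 11.2%. In mouse 11 a gene's deviation changed by 0.51 log2 units per 10 points of GC content, against -0.26 in mouse 7.

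TFEB and its relatives, transcription factors that switch on lysosomal genes, bind a palindromic motif whose core is CACGTG. The promoters of the pump genes were searched for the letters TCACGTGA, which read the same on both strands and contain CACGTG. Among RefSeq promoters (build GRCm38.p6, 250 bases before to 50 after a start site), 0.974% of 32851 held TCACGTGA and 7.15% held CACGTG. Of the 10 pump genes 8 were in that table, with 11 promoters. For 2 of these genes, Atp6v0d1 and Atp6v1a, a promoter held TCACGTGA, and no other gene of the 8 had a promoter with CACGTG. The promoters of Atp6v0d1 and Atp6v1a that held TCACGTGA are shown, with the motif in capitals. The first is on the minus strand of chromosome 8 at chr8:105566015-105566314, with the motif starting 4 bases before the start site. The second is on the minus strand of chromosome 16 at chr16:44139210-44139509, with the motif starting 132 bases before the RefSeq start site. In the GENCODE M21 annotation Atp6v1a spans 44085402 to 44139705, so this whole window lies inside the annotated gene.
Atp6v0d1: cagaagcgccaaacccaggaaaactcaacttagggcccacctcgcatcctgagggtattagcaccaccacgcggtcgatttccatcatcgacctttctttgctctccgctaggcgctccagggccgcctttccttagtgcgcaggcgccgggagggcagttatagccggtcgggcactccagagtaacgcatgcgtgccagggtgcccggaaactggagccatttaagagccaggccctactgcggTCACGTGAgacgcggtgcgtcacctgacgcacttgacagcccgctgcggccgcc
Atp6v1a: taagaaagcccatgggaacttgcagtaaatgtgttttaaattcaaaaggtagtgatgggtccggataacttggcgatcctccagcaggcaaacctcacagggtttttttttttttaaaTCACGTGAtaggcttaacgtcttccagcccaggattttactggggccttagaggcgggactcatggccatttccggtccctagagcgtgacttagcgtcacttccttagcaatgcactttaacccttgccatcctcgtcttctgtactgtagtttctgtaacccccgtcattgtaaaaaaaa
These matches describe letters in a window and were not tested as binding sites. In mouse 11 Atp6v0d1 was at its highest and Atp6v1a at its lowest, but with each library's trends on GC content and length removed both deviated by -0.06 log2 units there and both were highest in mouse 9.

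The pump was abundant. Together the 10 genes took 3860, 4037, 4391, 4132 and 4019 CPM in mice 7 to 11, a mean of 4088 ± 196 CPM or 0.409% of all counts. This sum varied by 4.78% between mice (coefficient of variation), less than any single pump gene, whose coefficients ran from 6.98% for Atp6v0d1 to 62.2% for Atp6v0c. Counting error alone would give 0.802% for Atp6v1b2, the gene with the most counts, and 5.71% for Atp6v0c, the one with the fewest. Per length, in RPKM (CPM per kilobase of gene, recomputed here with each library's own total), 8 of the 10 genes had mean levels between 72.4 and 180.3 RPKM. Each lay above at least 96.9% of the 16318 genes whose counts averaged 10 or more. Atp6v1h, at 16.5 RPKM, was above 80.3% of them, and Atp6v0c, at 5.35 RPKM, above 53.6%. The level and rank of Atp6v0c are uncertain, because its sequence is in part shared with pseudogenes.

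The order of the mean levels was Atp6v1b2, Atp6ap1, Atp6v0d1, Atp6v1g2, Atp6v0a1, Atp6ap2, Atp6v1a, Atp6v1e1, Atp6v1h and Atp6v0c. Each of the 9 neighbouring pairs in this order was compared by the log2 ratio of RPKM within each mouse (pseudocount 0.1), with an exact permutation test that flips signs (two-sided), whose smallest possible p with 5 mice is 0.0625. In 4 pairs the first gene was higher in all 5 mice and that smallest p was reached (adjusted p = 0.141 over the 9): Atp6v1b2 over Atp6ap1, Atp6ap2 over Atp6v1a, Atp6v1a over Atp6v1e1 and Atp6v1e1 over Atp6v1h. Their mean ratios were 1.24-, 1.14-, 1.33- and 4.41-fold. For Atp6ap2 over Atp6v1a the log2 ratio was 0.18 ± 0.22, with 0.01 in mice 7 and 10 and 0.54 in mouse 11. Its mean was thus no larger than its spread. The step from Atp6v1e1 to Atp6v1h was 2.14 ± 0.15 on the log2 scale, far wider than its spread over the mice. That spread holds no error in the gene lengths used, 4110 bases for Atp6v1e1 and 9746 for Atp6v1h. Without division by length their means were 298 and 161 CPM. In CPM the order of the genes differed, with Atp6v0a1 (743) and Atp6v1a (583) above Atp6v0d1 (252). The order of Atp6ap1, Atp6v0d1 and Atp6v1g2 was not resolved: the first pair had a log2 ratio of 0.04 ± 0.12 (exact permutation p = 0.625) and the second 0.02 ± 0.19 (exact permutation p = 0.938). Atp6v0a1 and Atp6ap2 also did not differ beyond their spread, at 0.06 ± 0.24 (exact permutation p = 0.688). Atp6v1g2 was above Atp6v0a1 in 4 of 5 mice and Atp6v1h above Atp6v0c in 4 of 5 (exact permutation p = 0.125 for each). The second of these pairs rests on the uncertain level of Atp6v0c.

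**Figure D1:**
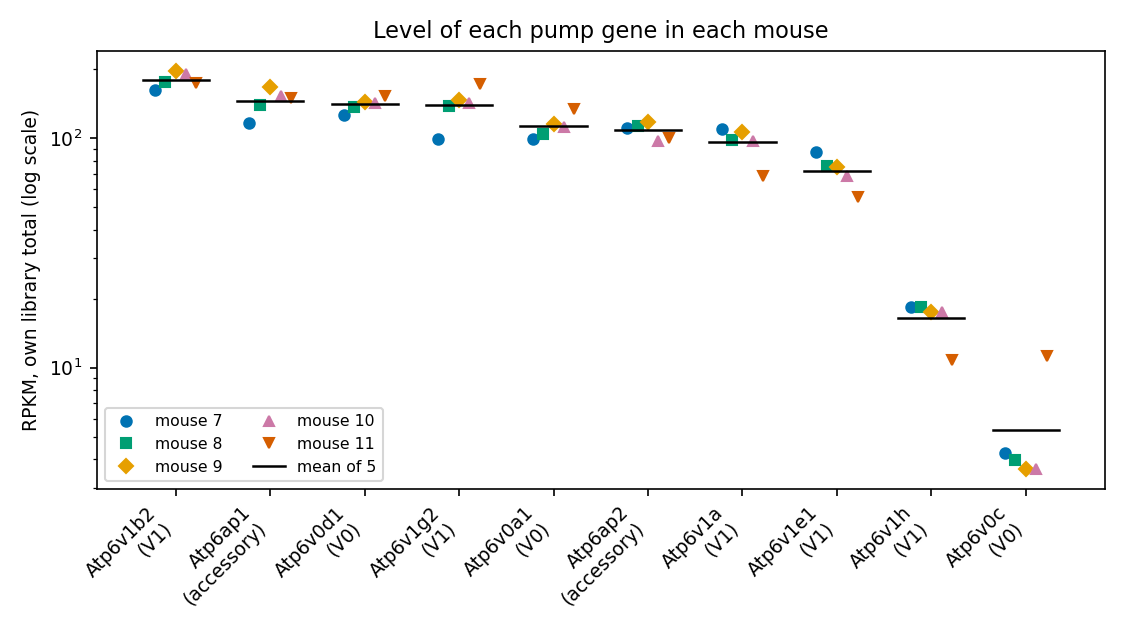
Level of each of the 10 pump genes in each mouse, in RPKM on a log axis, ordered by the mean of the 5 mice (black line), with the sector in brackets. The 8 highest genes lie between 55.3 and 198 RPKM in every mouse, while Atp6v1h and Atp6v0c lie below 20 RPKM, with mouse 11 apart from the other 4 in both.

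Among the V0 genes, Atp6v0a1 encodes the a1 subunit, which holds the path protons take beside the ring and is the form known from synaptic vesicles. It had 99.9, 105, 116, 112 and 134 RPKM in mice 7 to 11, a mean of 113 ± 13.2. Mouse 11 was highest and mouse 7 lowest, and no value lay far from the rest. Atp6v0d1 encodes the d subunit, which couples the ring to the rotating shaft. It had 126, 137, 144, 143 and 153 RPKM, a mean of 141 ± 9.83, and was the steadiest of the 10 by its coefficient of variation.

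Atp6v0c encodes the c subunit, the proteolipid that makes up most of the proton-carrying ring. It had 4.24, 3.97, 3.62, 3.63 and 11.3 RPKM, from 223, 207, 192, 197 and 715 counts. Mouse 11 was 2.92 times the mean of the other 4 mice, which lay within 3.62 to 4.24 RPKM (3.87 ± 0.298 without mouse 11). Its level is uncertain because its sequence is not unique: 88.0% of the 50-base stretches of its coding sequence, and 10.8% of those of its whole annotated transcripts, also occur in the processed pseudogenes Atp6v0c-ps2 and Atp6v0c-ps1. Those pseudogene rows held between 6 and 24 counts and between 2 and 8 counts, each highest in mouse 11. How reads with more than 1 matching place were counted is not given in the sources used here, and how far the shared sequence changed the count was not tested. The RPKM of Atp6v0c therefore cannot be set against that of the other subunits as a measure of subunit RNA. For the other 9 pump genes the share of coding 50-base stretches found elsewhere was 6.49% for Atp6ap2, 2.22% for Atp6v1a and 0 for the rest.

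Among the V1 genes, Atp6v1a and Atp6v1b2 encode the A and B subunits, which alternate around the ATP-splitting head. A is the catalytic one. Atp6v1b2 was the highest of the 10, at 163, 176, 198, 191 and 174 RPKM (180.3 ± 13.9). Atp6v1a had 110.5, 98.4, 107, 97.2 and 68.9 RPKM (96.4 ± 16.4). Mouse 11 was lowest for Atp6v1a, at 66.7% of the mean of the other 4, but lay inside the range of the others for Atp6v1b2.

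Atp6v1e1 and Atp6v1g2 encode the E and G subunits, which form the stalks that keep the head from turning. Atp6v1e1 had 87.0, 76.1, 75.0, 68.9 and 55.3 RPKM (72.4 ± 11.6), highest in mouse 7 and lowest in mouse 11. Atp6v1g2, the G form known mainly from neurons, had the opposite pattern, with 99.4, 139, 148, 142 and 174 RPKM (140.3 ± 26.7). Mouse 7 was at 66.0% of the mean of the other 4. Exons of Nfkbil1 on the opposite strand cover 5.74% of the exon bases of Atp6v1g2, and reads from the 2 genes cannot be told apart there if counting ignored strand. Atp6v1h encodes the H subunit, which holds V1 on V0 and blocks ATP splitting by free V1. It had 18.4, 18.3, 17.5, 17.5 and 10.8 RPKM (16.5 ± 3.22), with mouse 11 at 60.1% of the mean of the other 4, which were within 17.5 to 18.4 RPKM (17.9 ± 0.516 without mouse 11).

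The accessory subunits help the pump to assemble and to reach its membranes, and Atp6ap2 is also known as the prorenin receptor. Both genes are X-linked. Atp6ap1 had 117, 140, 168, 153 and 150 RPKM (146 ± 18.7), lowest in mouse 7 and highest in mouse 9. Atp6ap2 had 112, 114, 118, 97.9 and 100.2 RPKM (108 ± 8.88), also highest in mouse 9, with mice 10 and 11 below the other 3.

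In the GRCm38 genome, all 10 are annotated by GENCODE M21 as protein-coding, and counts were taken per gene. Atp6v0a1 (ENSMUSG00000019302) lies on chromosome 11 from 101009452 to 101063719 and Atp6v0d1 (ENSMUSG00000013160) on chromosome 8 from 105524465 to 105566047. Atp6v0c (ENSMUSG00000024121) lies on chromosome 17 from 24163866 to 24169702, and Atp6v1g2 (ENSMUSG00000024403) on the same chromosome from 35233660 to 35238767. Atp6v1b2 (ENSMUSG00000006273) spans 69088646 to 69113711 on chromosome 8, Atp6v1a (ENSMUSG00000052459) 44085402 to 44139705 on chromosome 16, and Atp6v1h (ENSMUSG00000033793) 5070018 to 5162529 on chromosome 1. Atp6v1e1 (ENSMUSG00000019210) spans 120794305 to 120822793 on chromosome 6. Atp6ap1 (ENSMUSG00000019087) and Atp6ap2 (ENSMUSG00000031007) lie on the X chromosome, from 74297097 to 74304721 and from 12587801 to 12617049. No exon of these genes overlapped an exon of another gene on the same strand.

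Several subunits exist as paralogs used by different tissues, and 8 pairs were compared. In the 6 whose paralog had counts, the pump gene had more RNA per length than its paralog in all 5 mice (exact permutation p = 0.0625, two-sided, the smallest possible, and 0.0625 after adjustment over the 8). In the other 2 the paralog had 0 counts, which fixes the direction, and only a bound is given. Atp6v0a1 made up 90.5% ± 0.916 of its summed RPKM with Atp6v0a2, the form known from the Golgi, and was 9.52-fold higher (log2 ratio 3.25 ± 0.16). Atp6v0a2 had 10.995, 11.9, 12.3, 12.1 and 11.5 RPKM. Exons of 4930404A12Rik on the opposite strand cover 9.86% of the exon bases of Atp6v0a2, and how such reads were counted is not given. Against Tcirg1, the a3 form of osteoclasts and lysosomes, at 4.43 ± 0.520 RPKM, Atp6v0a1 was 25.0-fold higher. The remaining a form, Atp6v0a4, known from kidney, had only 1 to 10 counts per library. The kidney and osteoclast d form Atp6v0d2 had 2 to 8 counts and the kidney B form Atp6v1b1 5 to 14 counts. Atp6v0d1 and Atp6v1b2 each made up 99.9% of their pair's summed RPKM.

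The E and G subunits gave the same picture at different depths. Atp6v1e2, known from testis, and Atp6v1g3, known from kidney, had 0 counts in every library. A count of 0 allows up to 3 counts per library. If no reads of the paralogs went uncounted, Atp6v1e1 was at least 449.97-fold above Atp6v1e2 and Atp6v1g2 at least 973-fold above Atp6v1g3 in every mouse. For Atp6v1e2 this bound is uncertain, because 53.1% of its coding 50-base stretches also occur in AC154492.1. Exons of that gene on the opposite strand cover 29.4% of the exon bases of Atp6v1e2, and how such reads were counted is not given. Atp6v1g1, the widely expressed G form, had 23.5, 24.2, 24.2, 25.1 and 32.8 RPKM. Atp6v1g2 made up 84.2% ± 1.97 of the summed RPKM of the pair and was 5.35-fold higher, from 4.22-fold in mouse 7 to 6.07-fold in mouse 9. That ratio is uncertain, because 67.2% of the coding 50-base stretches of Atp6v1g1 also occur in the annotated transcripts of Gm13453 and Gm12344, whose rows held means of 0.6 and 0.4 counts.

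**Figure D2:**
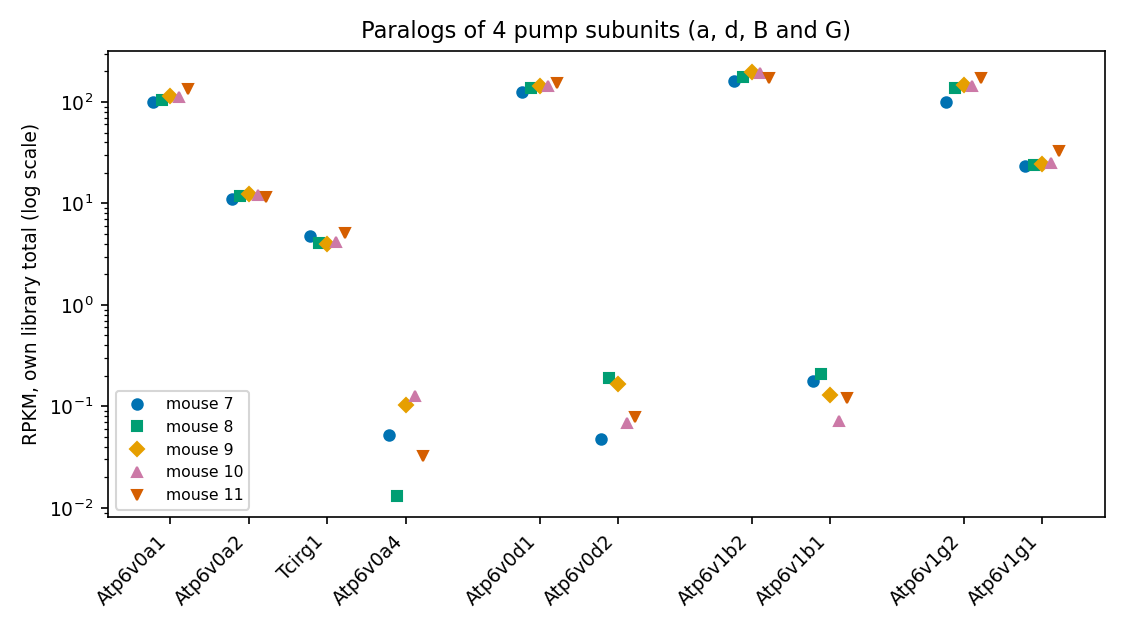
RPKM on a log axis for the a, d, B and G subunit genes and their paralogs, 1 symbol per mouse. Atp6v0a1, Atp6v0d1, Atp6v1b2 and Atp6v1g2 lie above their paralogs in every mouse; the lowest symbols, for Atp6v0a4, Atp6v0d2 and Atp6v1b1, stand for 1 to 14 counts.

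The other subunits that complete the pump were also measured. Atp6v0e2, a small V0 protein, had 157 ± 18.9 RPKM against 9.90 ± 1.11 for its paralog Atp6v0e. Atp6v0b, the second proteolipid of the ring, had 65.9 ± 10.9 RPKM. Exons of Gm12841 on the opposite strand cover 11.85% of its exon bases, and how such reads were counted is not given. The rotor subunit gene Atp6v1d had 126 ± 25.1 RPKM and Atp6v1f 70.4 ± 6.77. Of the coding 50-base stretches of Atp6v1f, 27.7% also occur in AC169506.3, so its level is less certain. Atp6v1c1, which encodes the subunit that lets V1 leave V0 reversibly, had 119.8 ± 16.4 RPKM and its paralog Atp6v1c2 only 9 to 32 counts. For Atp6v1d and Atp6v1c1 the gene lengths behind the deposited RPKM, 1403 and 2097 bases, were shorter than the M21 exon lengths of 4602 and 5601. Rnasek, also part of V0, had 7 to 19 counts, but 67.7% of its exon bases are shared with the same-strand gene Gm21988, so its level is uncertain.

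Genes that assemble, regulate or work beside the pump were taken from lists. Of 3 assembly factors Tmem199 was highest, at 12.7 ± 0.616 RPKM, and Ccdc115 lowest, at 4.04 ± 0.574. Among regulators Oxr1, a TLDc-domain protein, was highest at 61.8 ± 17.3 RPKM and Tldc2 lowest, with 0 to 3 counts. Of the chloride, proton and cation routes of the same organelles, the exchanger Clcn4 had 59.4 ± 4.19 RPKM and the channel Tpcn2 1.17 ± 0.098. Among vesicular transmitter transporters the glutamate transporter Slc17a7 had 348 ± 101 RPKM and Slc17a9 1 to 16 counts. In the Ragulator and Rag list Rraga was highest at 71.8 ± 5.23 RPKM and Lamtor3 lowest at 9.31 ± 1.59. Of the TFEB family Tfe3 had 4.86 ± 0.8996 RPKM, Tfeb, named here after its value was seen, 1.09 ± 0.496 and Tfec 0 to 2 counts.

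To ask whether any pump gene varied between the mice more than genes of its abundance do, each gene's dispersion was compared with the trend over all genes (edgeR's quasi-likelihood fit, Benjamini-Hochberg adjustment). None of the 10 pump genes passed an adjusted p of 0.05, and none of the 16318 genes tested did (0%). At an unadjusted p under 0.05 there was 1 pump gene, Atp6v0c, against 814 of all genes (4.99%), and limma's test on log2 CPM also gave 1. In edgeR's test its unadjusted p was 0.0112 and its adjusted p 0.97. Without mouse 11, no pump gene had an unadjusted p under 0.05 in edgeR's test, against 6.38% of 16305 genes. In limma's test with GC and length trends removed, 2 pump genes had an unadjusted p under 0.05, against 5.33% of 16264 genes, and none passed after adjustment. With no filter on low counts Atp6v0c passed, with an adjusted p of 0.0318 in edgeR's test, beside 0.812% of 28335 genes; its adjusted p over all alternatives ran from 0.0318 to 0.998. Of 22 tested assembly, regulator and other subunit genes none passed. Dmxl2 and Dmxl1, rabconnectin genes chosen after their values were seen, had unadjusted p of 0.0105 and 0.0152 and an adjusted p of 0.97 each in edgeR's test, with 35.7 and 6.65 RPKM in mouse 7 and 9.74 and 1.96 in mouse 11. With GC and length trends removed, the SD of log2 CPM went from 0.65 to 0.37 for Dmxl2 and from 0.61 to 0.19 for Dmxl1. The SD of log2 CPM had a median of 0.21 over the 10 pump genes and 0.22 over the 7985 genes with at least as many counts as the lowest of them, against 0.30 over all tested genes. With GC and length trends removed these medians were 0.21, 0.16 and 0.23. The median of the pump genes then lay above that of the genes with at least as many counts as Atp6v0c, the lowest of the 10. That set is not matched in counts, because the other 9 pump genes averaged 2579 counts or more, against 307 for Atp6v0c. Without Atp6v0c the median of the other 9 pump genes was 0.20, and 0.18 with the trends removed.

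The pump genes did not move as one block between the mice. On TMM-scaled log2 CPM, mouse 11 was highest for all 3 V0 genes and Atp6v1g2, and lowest for Atp6v1a, Atp6v1e1 and Atp6v1h. That is 4 of 10 highest and 3 of 10 lowest, where 35.8% and 34.2% of all tested genes were highest and lowest in mouse 11. Mouse 7 was lowest for 5 of 10 (23.3% of all genes) and highest for 3 of 10 (26.3%), and mouse 9 was highest for Atp6v1b2, Atp6ap1 and Atp6ap2 (14.8%) and lowest for none (15.4%). Mouse 10 was lowest for Atp6v0c and Atp6ap2 (12.8%) and highest for none (11.4%). Mouse 8 was neither highest (11.7%) nor lowest (14.4%) for any. These shares are of the size seen over all genes or rest on few genes. The summed V0 level was 896, 948, 1029, 1001 and 1193 CPM in mice 7 to 11 and the summed V1 level 2317, 2368, 2545, 2411 and 2109 CPM, so mouse 11 had the highest V0 and the lowest V1 sum. With GC and length trends removed, the mean log2 deviation of the 5 V1 genes in mouse 11 went from -0.19 to -0.03, and mouse 7 was then lowest at -0.10. That of the 3 V0 genes stayed highest in mouse 11, at 0.54. The 3 genes were not alike in this, with 1.15 for Atp6v0c, whose level is uncertain, 0.53 for Atp6v0a1 and -0.06 for Atp6v0d1.

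**Figure D3:**
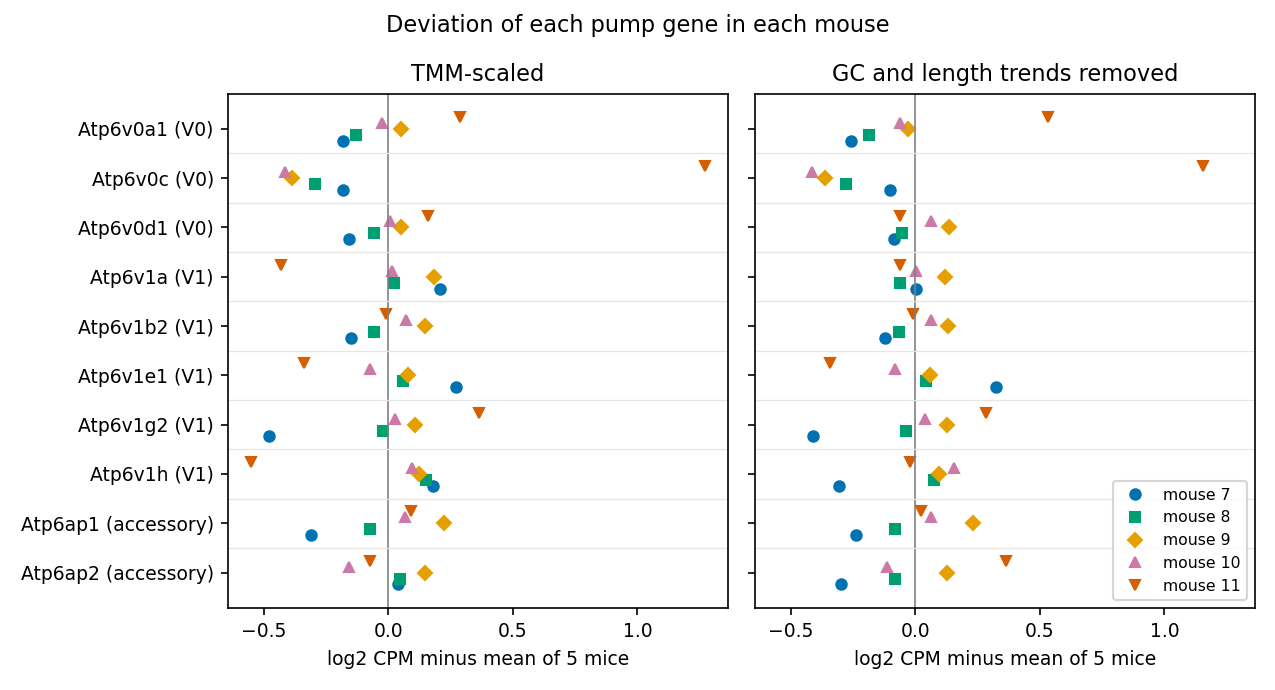
Log2 CPM of each pump gene in each mouse minus the gene's mean over the 5 mice, before (left) and after (right) the trends of each library on GC content and gene length were removed. Mouse 11 stays far to the right for Atp6v0c (1.27 and 1.15), while its low values for Atp6v1a and Atp6v1h move to -0.06 and -0.02.

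The pattern of mouse 11 went with GC content and gene length for some of these genes. Both trends were removed in the same step, so their shares cannot be told apart. The transcripts of Atp6v1h, Atp6ap2 and Atp6v1a had the lowest GC content of the 10 (37.6%, 40.5% and 44.6%), and those of Atp6v0d1 and Atp6v0c the highest (53.4% and 52.0%). When each library's trends on GC content and length were removed, the deviation of mouse 11 went from -0.43 to -0.06 for Atp6v1a, from -0.55 to -0.02 for Atp6v1h and from 0.16 to -0.06 for Atp6v0d1. It stayed at -0.34 for Atp6v1e1 and went from 0.37 to 0.28 for Atp6v1g2 and from 0.29 to 0.53 for Atp6v0a1. For Atp6ap2, in spite of its low GC content, it went from -0.07 to 0.36, away from 0, and the SD over the mice from 0.12 to 0.25. Atp6v0c kept 1.15 of 1.27. With the same step the SD of log2 CPM over the mice went from 0.26 to 0.07 for Atp6v1a and went from 0.18 to 0.31 for Atp6v0a1. After it, mouse 7 was lowest for 7 of 10 pump genes, where 30.3% of all genes and 41.1% of those with at least as many counts were, mouse 11 for 2 (25.5%), mouse 10 for 1 (15.0%) and mice 8 and 9 for none (15.2% and 14.0%). Mouse 11 was then highest for Atp6v0a1, Atp6v0c, Atp6v1g2 and Atp6ap2 (4 of 10, against 30.1% of all genes) and mouse 9 for 4 (18.1%). Mice 7 and 10 were highest for 1 each (23.1% and 16.3%) and mouse 8 for none (12.4%).

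**Figure D4:**
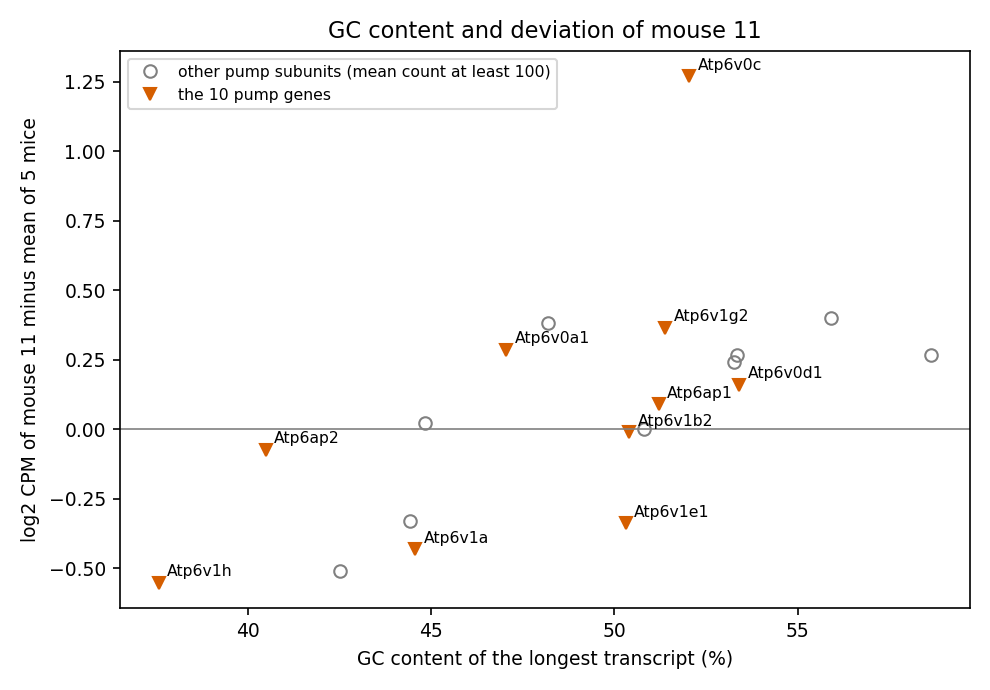
Deviation of mouse 11 (log2 CPM minus the mean of 5 mice, vertical axis) against the GC content of the longest transcript (horizontal axis, percent) for the 10 pump genes and 9 other pump subunit genes. Atp6v1h and Atp6v1a lie low at low GC content; Atp6v0c, at 52.0% GC, lies above all others shown.

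The mean log2 deviation of the 10 genes was -0.08, -0.04, 0.07, -0.04 and 0.08 in mice 7 to 11. Among 10949 other protein-coding genes whose counts averaged 100 or more, the 5 whose deviations lay closest to this mean were Copg1, Ube4b, Atp5a1, Afg3l2 and Cpsf7, with root mean square differences from 0.020 to 0.023 log2 units over the 5 mice. The value of mouse 11 rests on Atp6v0c: without it the mean deviations were -0.06, -0.01, 0.12, 0.00194 and -0.06. The 5 closest genes were matched to the mean with Atp6v0c in it. Such closeness over 5 values is a description of these libraries.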

How the data were processed

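The authors deposited whole-number counts per Ensembl gene for 5 libraries. The tools named are featureCounts 1.4.6-p4, STAR 2.4.1d and CASAVA 1.7, and the build GRCm38, per the submitters' processing notes, which give no roles or settings. Annotation release, strand setting, treatment of multiply mapping reads and read length are not given in the sources used here. The authors also deposited RPKM, in which the library total changes from gene to gene: over 12729 genes the implied gene lengths were within 1% of each other for 0 genes with each library's own total and for all with totals taken in turn. RPKM were therefore recomputed from the counts with the implied lengths. Symbols, coordinates and exon overlaps come from GENCODE M21 (47224 of 47729 genes matched), and GC content from its longest transcript.

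Variation between mice was tested with edgeR 4.0.16 (intercept fit, TMM, mean count of at least 10) and limma 3.58.1. The edgeR test was also run on simulated data, and the outcome is not reported here. The fitted F distribution had 5.82 prior degrees of freedom. Trends on GC content and length were fitted per library with splines. Levels were compared by exact sign-flip permutation tests. DESeq2 1.42.0 gave size factors for an alternative. The members and gene lists were chosen with earlier results of these data known. Named were all 10 members and other subunits, and, of each further list, the genes of highest and lowest RPKM and any called variable; Tfeb was added later. CPM and log2 CPM were computed from the deposited counts. The regulator Meak7 had no match. The planned protein sequences were not used here.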

Additional observations from a re-analysis of the deposited data

Results flagged for a closer look

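Of 30 values examined per mouse (pump genes, other subunits, sums and paralog ratios), 5 had 1 mouse separated from the other 4 by more than 0.71 of the range. Chance alone flags about 1 in 20 independent groups, but sums and ratios reuse the same genes. The share of all tested genes flagged by this rule was not computed, so no excess in the pump genes can be read from the 5. The separated mouse was mouse 11 each time, which was also highest for 35.8% and lowest for 34.2% of all tested genes. Atp6v0c had 38.2 CPM there and 12.3 to 14.3 in the others, and Atp6v1h 105 CPM against 170 to 179. Among the other subunits Atp6v1f had 87.5 CPM against 70.5 to 73.7, and Atp6v1g1 37.2 CPM against 26.7 to 28.5. The log2 RPKM ratio of Atp6v0a1 to Atp6v0a2 was 3.53 in mouse 11 and 3.13 to 3.22 in the others. With GC and length trends removed, the log2 deviation of mouse 11 was 1.15 for Atp6v0c, -0.02 for Atp6v1h, 0.02 for Atp6v1f and 0.47 for Atp6v1g1. Coding sequence of Atp6v0c, Atp6v1g1 and Atp6v1f is in part shared with other annotated genes, and the part this plays in mouse 11 was not tested.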

How the results depend on the processing

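With no filter on low counts, 1 pump gene (Atp6v0c) and 1 other pump-related gene (Dmxl2) were called variable, in place of 0 and 0; the cause was not tested. All other planned settings, including leaving out each mouse, gave 0 for both. The summed level ranged from 4012 to 4145 CPM when 1 mouse was left out and was 4070 CPM without Atp6v0c, an alternative chosen after seeing the data. Between 4 and 5 of the 9 neighbouring pairs kept 1 order in all remaining mice, and all 8 paralog ratios kept their direction, which 0 counts fix for 2 of them. The mean log2 RPKM ratio changed sign for 3 unresolved neighbours: leaving out 1 mouse each gave -0.0010 to 0.0802 for Atp6ap1 to Atp6v0d1 (lowest without mouse 9), -0.0566 to 0.0750 for Atp6v0d1 to Atp6v1g2 (lowest without mouse 7) and -0.0293 to 0.116 for Atp6v0a1 to Atp6ap2 (lowest without mouse 11). With library totals alone Atp6v0c was lowest in mouse 9 and not in mouse 10. No paired analysis was possible because the labels give a single group. Depth limits the statements on Atp6v0a4, Atp6v0d2 and Atp6v1b1, with at most 14 counts per library.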
